A study of Mus musculus with 4 samples.

Results

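The genes described here bring fatty acids into heart muscle cells, store them as triglyceride and burn them in mitochondria. They are the 44 genes, of 22322 in the deposited tables, whose symbol is on a list named by function and not by level, and each of the 44 symbols matched a single row. All 44 passed the low-count filter and were among the 12499 genes tested. By role they were 5 genes of uptake, 5 of activation to acyl-CoA, 3 acyl-CoA thioesterases, 6 of the carnitine shuttle and its malonyl-CoA brake, 12 of beta-oxidation, 3 of the electron transfer flavoprotein, 8 of storage and lipolysis, and 2 mitochondrial gates, Ucp3 and Pdk4.

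Heart muscle takes most of its fuel from fatty acids, which lipoprotein lipase frees from circulating triglyceride and which CD36, fatty acid transport proteins and a cytosolic binding protein carry inward. Acyl-CoA synthetases trap them as acyl-CoA, carnitine palmitoyltransferase 1 commits them to the mitochondrion unless malonyl-CoA blocks it, and the beta-oxidation enzymes shorten them while passing electrons to the electron transfer flavoprotein. Nuclear receptors of the PPAR and ERR families are known to drive many of these genes, and reduced use of fatty acids is a textbook description of the failing heart.

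RNA was sequenced from mouse cardiomyocytes, in 2 libraries of a sham group and 2 of a TAC group (transverse aortic constriction), a narrowing of the aorta that puts a pressure load on the left ventricle. According to the methods of the study, male mice were operated on at 2 months of age and hearts were examined 14 weeks after surgery, although the same methods call the mice 14 weeks old when cells were isolated. The sources used here do not give the strain, and no transgene or drug treatment is named for either group. Each library came from part of the myocytes of a single heart, released by perfusing the coronary vessels with enzymes on a Langendorff system. The comparison of TAC with sham asks which mRNAs differ in cardiomyocytes of pressure-loaded hearts.

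The libraries held 24237777 to 32118323 counts, and the fatty acid genes took 2.11% to 2.59% of them. TAC 1 was the library with the lowest of these shares, and it also had the highest share of counts on the 13 protein-coding mitochondrial genes, 47.4% against 39.8% to 40.8% in the other libraries. Without the mitochondrial counts, the fatty acid genes took 4.01% to 4.31%. The 15 cardiomyocyte markers, among them Myh6, Tnnt2 and Actc1, summed to 89699 CPM (library-size-scaled counts, with TMM factors) in sham 1 and 99282 in sham 2 against 100063 in TAC 1 and 94907 in TAC 2, so the groups overlapped in the sum and the labelled cell type was well represented. One by one, 11 of the 15 had a value above 0 (median 0.11). Both TAC libraries lay above both sham libraries in 8, beside 29.8% of all tested genes, and below them in 3, beside 30.3%. The test called 1 higher and 0 lower in edgeR (2.58% and 2.43% of all tested genes). In DESeq2 these were 6 and 1, with 897 of 16015 genes called in all. They were 4 and 1 in limma-voom (692 of 12499) and 0 and 1 with total counts (528 of 12499). Markers of other cells were present at far lower sums, most of them lower in TAC, as described further below.

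Most of the fatty acid programme was at a similar level in both groups. In the edgeR quasi-likelihood test with Benjamini-Hochberg adjustment over all genes, 2 of the 44 genes fell in TAC, Cpt1a and Lipe, and 0 rose, where 2.43% of all tested genes were called lower and 2.58% higher. DESeq2 called 2 higher (Pdk4 and Fabp3) and the same 2 lower, with 897 of 16015 genes called in all. The limma-voom fit called 0 higher and the same 2 lower, with 692 of 12499 genes called in all. An unadjusted p under 0.05 was reached by 5 genes on the higher and 5 on the lower side, together 10 of 44, beside 27.5% of all tested genes. A fitted fold change over 2 in either direction was reached by 0 of 44, beside 4.96% of all tested genes.

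The median log2 fold change was 0.01 over the fatty acid genes and −0.01 over all tested genes. Values ran from −0.97 (Ucp3) to 0.55 (Angptl4), and 33 of 44 (75%) lay within 0.25 of 0 on the log2 scale, against 55.7% of all tested genes. Both TAC libraries lay above both sham libraries in 14 of the 44 genes, beside 29.8% of all tested genes, and below them in 10, beside 30.3%. In the remaining 20 the groups overlapped. The smallest p that exact permutation of 2 against 2 libraries allows is 0.333. The p values of genes therefore lean on a spread pooled over genes by edgeR, and they measure the spread between these hearts only.

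**Figure D1:**
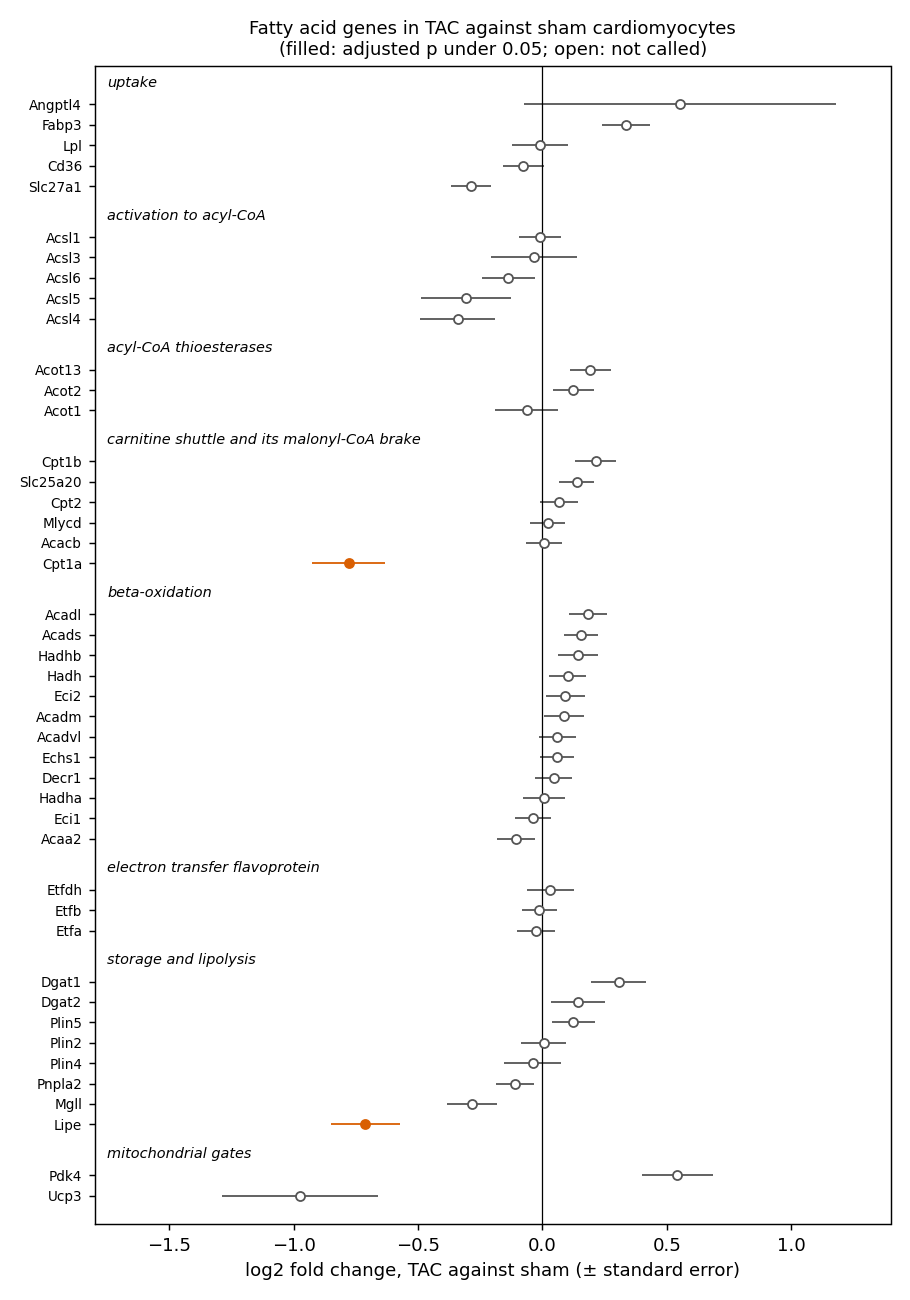
Log2 fold change of TAC against sham for each of the 44 fatty acid genes, grouped by role; points are edgeR estimates, bars their standard error, and filled points are called at an adjusted p under 0.05. Only Cpt1a (−0.78) and Lipe (−0.71) are filled, and the 12 beta-oxidation genes all lie between −0.11 and 0.18.

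The largest part of the RNA of this programme served uptake. Per length, on the deposited FPKM scale, Fabp3, the cytosolic fatty acid binding protein of heart, was the most abundant member at a mean of 2477 over the 4 libraries, which was 22.3% of the summed FPKM of the 44 genes. It was followed by Lpl, lipoprotein lipase, at 1789, by Hadhb, a subunit of the trifunctional protein, at 832, and by Cd36, the membrane fatty acid translocase, at 654. These 4 genes made up 51.9% of the sum. At the other end stood Acsl3 at 2.39, Acsl4 at 1.92 and Acsl5 at 1.43, all acyl-CoA synthetases. Both called genes were low as well, with Lipe at 8.74 and Cpt1a at 8.39. Part of the Fabp3 transcript cannot be told from a pseudogene, since 37.3% of its 50-base stretches occur elsewhere, mostly in Fabp3-ps1.

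**Figure D2:**
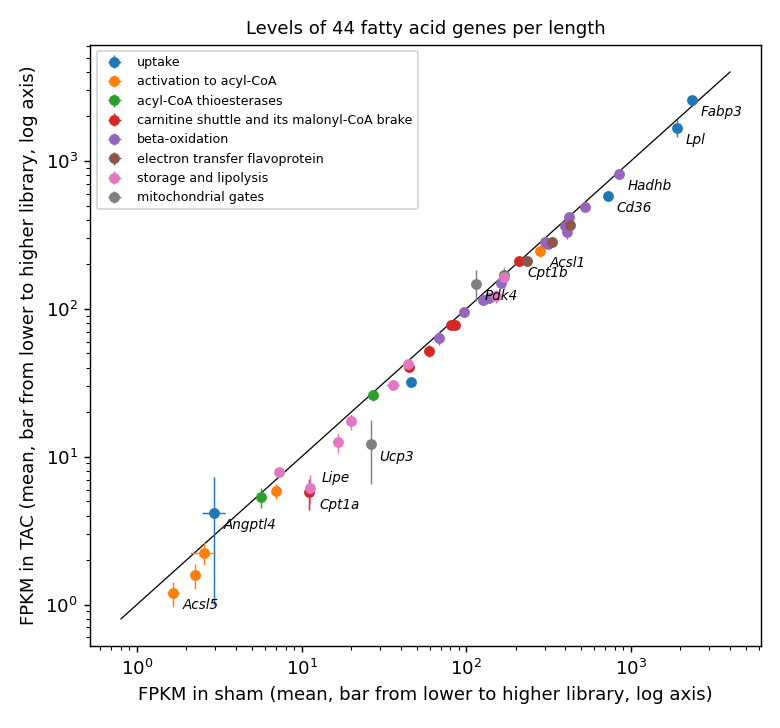
Mean FPKM of each of the 44 fatty acid genes in TAC (vertical) against sham (horizontal), both on log axes, with bars from the lower to the higher library and the line of equal level. Levels span from 1.43 (Acsl5) to 2477 (Fabp3) as means over the 4 libraries, and Cpt1a, Lipe and Ucp3 lie furthest below the line.

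The carnitine shuttle held the gene with the lowest p of the list. Cpt1a (ENSMUSG00000024900, chr19:3322334-3385733 on the plus strand of GRCm38) encodes the liver-type carnitine palmitoyltransferase 1, the minor form in adult heart, which makes acylcarnitine at the outer mitochondrial membrane. It was measured at 43.7 CPM in sham 1 and 45.6 in sham 2 against 21.7 in TAC 1 and 30.4 in TAC 2. Both TAC libraries lay below both sham libraries, and TAC 1 was the lower of them. The fit gave a log2 fold change of −0.78 ± 0.15 (SE), with a 95% interval of −1.12 to −0.43, which is 41.7% lower in TAC, at an edgeR adjusted p of 0.0333. It rested on 605 to 1383 counts per library. With the deposited FPKM in limma the call was lost, at an adjusted p of 0.0622, and in the other 11 of 12 alternatives it held.

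Cpt1b, the muscle form and the main one in heart, had a value above 0 that did not pass the test. It read 529 CPM in sham 1 and 588 in sham 2 against 649 in TAC 1 and 648 in TAC 2, with a log2 fold change of 0.21 ± 0.08 and an edgeR adjusted p of 0.150. Both TAC libraries were above both sham libraries. The value was 0.03 with total counts and 0.03 with the deposited FPKM, in which the groups overlapped. Of its 3372 exon bases, 2744 are shared with the readthrough gene Gm44502 on the same strand, which received counts equal to 0.885% to 1.92% of those of Cpt1b. Because CPT1 isoforms differ in sensitivity to malonyl-CoA, their balance within a library was also computed per length. The FPKM of Cpt1b was 18.2 times that of Cpt1a in sham 1, 19.4 times in sham 2, 45.0 times in TAC 1 and 32.1 times in TAC 2. This ratio does not depend on how libraries were scaled, and it was higher in both TAC libraries than in both sham libraries. Put as a share, Cpt1b made up 94.8% and 95.1% of CPT1 FPKM in the sham libraries and 97.8% and 97.0% in TAC 1 and TAC 2, so the muscle form was the main form in every library. The ratios are a description with no test.

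**Figure D3:**
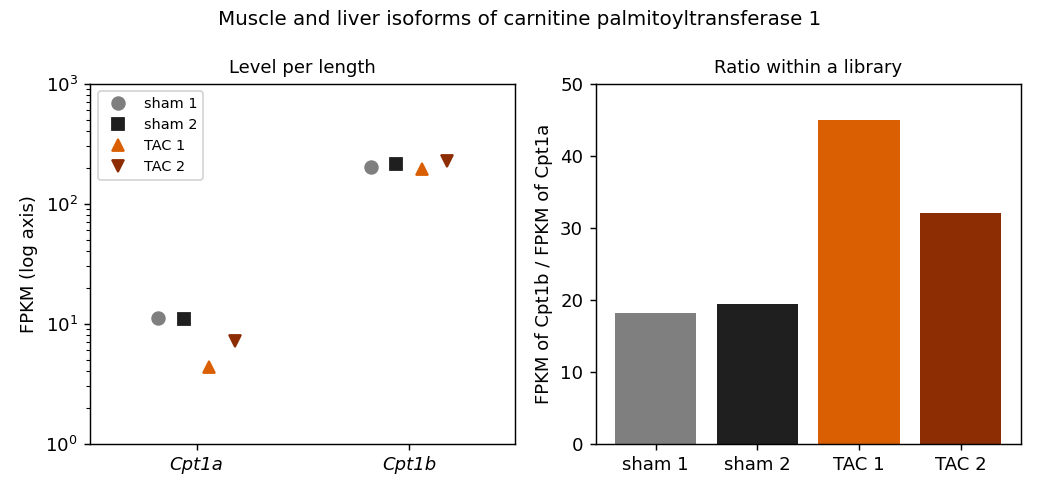
Left, deposited FPKM of Cpt1a and Cpt1b in each of the 4 libraries on a log axis; right, the ratio of Cpt1b to Cpt1a FPKM in each library, with bars starting at 0. Cpt1a is lower in TAC 1 and TAC 2 than in the sham libraries while Cpt1b overlaps on this scale, and the ratio is 18.2 and 19.4 in sham against 45.0 and 32.1 in TAC.

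The other shuttle genes showed no called difference. Slc25a20, the carnitine-acylcarnitine translocase of the inner membrane, read 132 and 138 CPM in sham 1 and 2 and 150 and 146 in TAC 1 and 2. Its log2 change was 0.14 (edgeR adjusted p = 0.255). The value was −0.05 with total counts and −0.05 with the deposited FPKM, in which the groups overlapped. Cpt2, which turns acylcarnitine back into acyl-CoA, had 0.07 (edgeR adjusted p = 0.612). The malonyl-CoA brake was close to level, with Acacb, which makes malonyl-CoA at the mitochondrion, at a log2 fold change of 0.01 (95% interval −0.16 to 0.18) and Mlycd, which destroys it, at 0.02 (−0.14 to 0.18). In both of these genes the groups overlapped.

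Storage and lipolysis held the other called gene. Lipe (ENSMUSG00000003123, chr7:25379527-25398710 on the minus strand of GRCm38) encodes hormone-sensitive lipase, which cuts diglyceride during lipolysis. It read 29.5 CPM in sham 1 and 31.1 in sham 2 against 15.9 in TAC 1 and 21.2 in TAC 2, so that both TAC libraries were below both sham libraries and TAC 1 was again the lowest. The log2 fold change was −0.71 ± 0.14, with a 95% interval of −1.04 to −0.38, which is 38.9% lower in TAC, at an edgeR adjusted p of 0.0364. Without TAC 1 the call was lost, at −0.51 and an edgeR adjusted p of 0.0647. A fit without a TAC library leaves a single TAC sample, which is assumed to vary like the sham libraries, here and wherever such a p is given. The call was also lost with the deposited FPKM in limma. Over 12 alternatives its adjusted p ran from 0.000953 to 0.0665. Of its 5886 exon bases, 918 overlap the antisense gene 4732471J01Rik, and since no source used here says whether counting used strand, reads there could belong to either gene.

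The other lipases and droplet proteins gave smaller values. Mgll, which releases the last fatty acid from monoglyceride, read 57.0, 58.1, 43.0 and 51.8 CPM in sham 1, sham 2, TAC 1 and TAC 2, a log2 change of −0.28 ± 0.10 (edgeR adjusted p = 0.130). Its value was −0.15 without TAC 1 and −0.42 without TAC 2, where it was called (edgeR adjusted p = 0.0333). Pnpla2, adipose triglyceride lipase, which starts lipolysis, read 272, 285, 249 and 266 CPM in the same order, a log2 change of −0.11 (edgeR adjusted p = 0.371). All 3 of these intracellular lipases had both TAC libraries below both sham libraries, as did 30.3% of all tested genes, and only Lipe passed the test. Dgat1, which makes triglyceride in its last step, read 13.2, 12.5, 16.4 and 15.5 CPM, a log2 change of 0.31 ± 0.11 (edgeR adjusted p = 0.130), with both TAC libraries above both sham libraries in CPM. With total counts the value was 0.11, and with the deposited FPKM it was 0.10 and the groups overlapped. Its relative Dgat2, more abundant per length in these cells, had 0.14 (edgeR adjusted p = 0.414) with overlapping groups. The droplet coat proteins overlapped between groups, with Plin5, which ties droplets to mitochondria, at 77.2, 87.1, 92.4 and 86.7 CPM and a log2 change of 0.12 (edgeR adjusted p = 0.376) that was −0.06 with total counts. Plin2 had a log2 fold change of 0.01 and Plin4 of −0.04.

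Promoters of the called genes and of Ucp3, whose estimate was the most negative, are shown because fatty acid genes are known targets of nuclear receptors that bind AGGTCA. The sequences are those of RefSeq on GRCm38.p6, from 250 bases before to 50 bases after an annotated start, read 5′ to 3′ on the strand of the gene. Capitals mark AGGTCA on either strand, so that TGACCT is a match on the opposite strand. Cpt1a lies at chr19:3323051-3323350 on the plus strand, Lipe has starts at chr7:25395938-25396237 and chr7:25390063-25390362 on the minus strand, and Ucp3 lies at chr7:100472741-100473040 on the plus strand.
Cpt1a: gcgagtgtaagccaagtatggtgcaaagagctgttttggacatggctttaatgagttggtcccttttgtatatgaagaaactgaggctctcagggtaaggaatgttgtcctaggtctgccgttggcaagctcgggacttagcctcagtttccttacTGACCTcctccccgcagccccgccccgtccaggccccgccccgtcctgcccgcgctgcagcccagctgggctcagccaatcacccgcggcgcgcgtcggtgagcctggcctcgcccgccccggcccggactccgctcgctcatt
Lipe, the upstream start: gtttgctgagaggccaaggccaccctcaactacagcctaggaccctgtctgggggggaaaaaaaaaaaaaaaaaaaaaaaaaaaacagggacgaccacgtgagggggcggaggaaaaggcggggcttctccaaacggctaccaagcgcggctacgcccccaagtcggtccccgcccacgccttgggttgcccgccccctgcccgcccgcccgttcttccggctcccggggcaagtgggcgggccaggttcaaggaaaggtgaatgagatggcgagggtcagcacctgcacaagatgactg
Lipe, the downstream start: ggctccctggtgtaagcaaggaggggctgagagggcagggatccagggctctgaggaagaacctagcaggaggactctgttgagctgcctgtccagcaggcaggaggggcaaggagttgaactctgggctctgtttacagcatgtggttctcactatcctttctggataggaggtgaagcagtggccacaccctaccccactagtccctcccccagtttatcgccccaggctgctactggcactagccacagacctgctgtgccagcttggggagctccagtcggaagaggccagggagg
Ucp3: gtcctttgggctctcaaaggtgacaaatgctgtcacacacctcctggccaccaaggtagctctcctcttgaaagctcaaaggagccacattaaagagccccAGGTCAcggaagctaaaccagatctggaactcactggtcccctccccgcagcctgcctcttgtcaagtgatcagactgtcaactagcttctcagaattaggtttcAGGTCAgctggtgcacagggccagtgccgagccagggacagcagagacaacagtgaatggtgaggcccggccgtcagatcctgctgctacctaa
In the window of Cpt1a, 1 match on the opposite strand began 94 bases before the start. In that of Ucp3, 2 matches lay 149 and 44 bases before the start, and in the 2 windows of Lipe these letters did not occur.

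A promoter entry was found for 36 of the 44 genes, with 44 entries in all because several genes have more than 1 start. The letters AGGTCA on either strand occurred in 11 of these 44 entries (25%), against 16.3% of the 32851 mouse promoters of the same length. The longer ERR element TNAAGGTCA, which contains AGGTCA, occurred in 1 entry, that of Acsl6 (2.27%), against 1.28% of all promoters. DR1, which is AGGNCA repeated in one direction with 1 base between the copies, occurred in 0 entries, against 0.381% of all. These matches describe the windows, and whether any of them is bound was not measured.

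Ucp3 and Pdk4, the mitochondrial gates, are both known for responding to fatty acids, and their values lay in opposite directions. Ucp3, an uncoupling protein of muscle mitochondria, read 58.9 CPM in sham 1 and 61.3 in sham 2 against 18.5 in TAC 1 and 43.0 in TAC 2. Both TAC libraries were below both sham libraries, but they were far apart. The log2 fold change was −0.97 ± 0.31 (95% interval −1.71 to −0.24) and was not called (edgeR adjusted p = 0.105). Without TAC 1 it was −0.48 (edgeR adjusted p = 0.0480) and without TAC 2 it was −1.70 (edgeR adjusted p = 0.000125), so its size rested on TAC 1. It was called in 5 of 12 alternatives, the replicate block among them, with adjusted p values from 0.000125 to 0.331. Pdk4, the kinase that shuts pyruvate dehydrogenase and so spares glucose when fat is burned, read 366 CPM in sham 1 and 377 in sham 2 against 452 in TAC 1 and 629 in TAC 2. Both TAC libraries were above both sham libraries, with TAC 2 the highest, and the log2 fold change of 0.54 ± 0.14 was not called (edgeR adjusted p = 0.0703). It was called in 4 of 12 alternatives, again with the block among them, and had adjusted p values from 0.000815 in DESeq2 to 0.360 with the deposited FPKM. Its size rested on TAC 2, at 0.76 without TAC 1, where it was called, and 0.29 without TAC 2. It was 0.37 with total counts and 0.33 with the deposited FPKM, in which the groups overlapped.

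**Figure D4:**
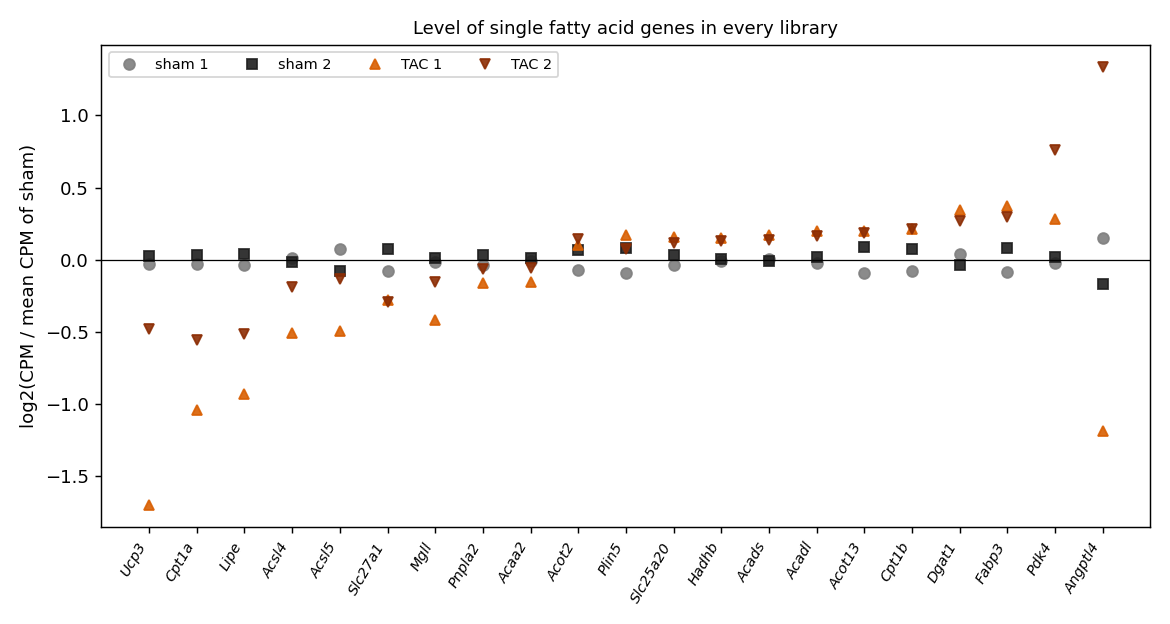
Level of the 20 fatty acid genes with the lowest p, and of Angptl4, in each of the 4 libraries, as log2 of CPM over the mean CPM of sham. Sham 1 and sham 2 stay close together, TAC 1 lies below TAC 2 for Ucp3 (18.5 against 43.0 CPM), Cpt1a and Lipe, and Angptl4 is split from 2.73 CPM in TAC 1 to 15.7 CPM in TAC 2.

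Among the uptake genes, none was called by edgeR, 2 of 5 had an unadjusted p under 0.05 (27.5% of all tested genes), DESeq2 called Fabp3, and limma-voom called 0. Fabp3 read 1709 CPM in sham 1 and 1917 in sham 2 against 2352 in TAC 1 and 2226 in TAC 2. Both TAC libraries were above both sham libraries, with a log2 change of 0.34 ± 0.10 (edgeR adjusted p = 0.0826). The value was 0.15 with total counts and 0.15 with the deposited FPKM. Slc27a1, fatty acid transport protein 1, read 106, 118, 92.4 and 91.6 CPM in sham 1, sham 2, TAC 1 and TAC 2, with a log2 change of −0.29 ± 0.08 (edgeR adjusted p = 0.0793), and both TAC libraries were below both sham libraries. It was called in 2 of 12 alternatives, with totals without mitochondrial genes (edgeR adjusted p = 0.0319) and with no low-count filter (edgeR adjusted p = 0.0473). Cd36 read 1606, 1684, 1536 and 1583 CPM, which put both TAC libraries just below both sham libraries, with a log2 fold change of −0.08 (95% interval −0.27 to 0.12). Lpl read 7641, 7036, 6864 and 7721 CPM, with a log2 fold change of −0.01 (95% interval −0.27 to 0.25) and overlapping groups.

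Angptl4, a secreted inhibitor of lipoprotein lipase, was the most variable member, and it is described here although its p did not place it among the 20 lowest. It read 6.89 CPM in sham 1 and 5.53 in sham 2 against 2.73 in TAC 1 and 15.7 in TAC 2, on 76 to 384 counts. One TAC heart was therefore below and the other above both sham hearts. The log2 fold change of 0.55 ± 0.63 was not called (edgeR adjusted p = 0.599), and its sign depended on the library left out, at 1.34 without TAC 1 and −1.18 without TAC 2.

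The 12 genes of beta-oxidation kept to a narrow range. None was called by edgeR, DESeq2 or limma-voom, and 1 (Acadl) had an unadjusted p under 0.05 in edgeR, beside 27.5% of all tested genes. All 12 lay within 0.25 of 0 on the log2 scale, beside 55.7% of all tested genes. Their summed level was 7316 CPM in sham 1 and 7529 in sham 2 against 7898 in TAC 1 and 7761 in TAC 2, so both TAC libraries were above both sham libraries by a small margin. The median log2 fold change was 0.07 with TMM scaling and −0.12 with total counts, and 10 of the 12 values were above 0 with TMM scaling but 0 of 12 with total counts. Total counts moved the median of all tested genes to −0.20, and relative to that median 10 of the 12 were again above. With the deposited FPKM 6 of the 12 were above the median of all genes, so the position of the group depended on the values used.

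Within this group the acyl-CoA dehydrogenases, which start each round by chain length, included the 2 highest values. Acadl, the long-chain enzyme, read 741, 763, 862 and 844 CPM in sham 1, sham 2, TAC 1 and TAC 2, a log2 change of 0.18 ± 0.08 (edgeR adjusted p = 0.171). Acads, the short-chain enzyme, read 171, 169, 191 and 187 CPM, a log2 change of 0.15 (edgeR adjusted p = 0.196). In both, the TAC libraries were above the sham libraries in CPM, but the groups overlapped in the deposited FPKM. With total counts Acadl was at −0.01 and Acads at −0.04. The very-long-chain enzyme Acadvl had a log2 fold change of 0.06 and the medium-chain enzyme Acadm of 0.09, and neither was called. Hadhb, which carries the thiolase of the trifunctional protein, read 1604, 1618, 1791 and 1765 CPM, a log2 change of 0.14 (edgeR adjusted p = 0.294), while its partner subunit Hadha had 0.01 with overlapping groups. Acaa2, the mitochondrial thiolase that ends a round, read 575, 582, 520 and 555 CPM, a log2 change of −0.11 (edgeR adjusted p = 0.393), and was the single beta-oxidation gene with both TAC libraries below both sham libraries. Hadh and Echs1, the dehydrogenase and hydratase of shorter chains, had 0.10 and 0.06. Eci1, Eci2 and Decr1, which prepare unsaturated fatty acids for the cycle, had −0.04, 0.09 and 0.05 with overlapping groups.

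The electron transfer flavoprotein, which takes the electrons of these dehydrogenases, stayed close to level. Etfa had a log2 fold change of −0.03 (95% interval −0.20 to 0.15), Etfb of −0.01 (−0.18 to 0.15) and Etfdh, its ubiquinone oxidoreductase, of 0.03 (−0.19 to 0.25). In all 3 genes the groups overlapped. None was called or had an unadjusted p under 0.05, which 27.5% of all tested genes had.

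The acyl-CoA synthetases had values below 0 throughout, at a median of −0.14 with TMM scaling, against −0.01 for all tested genes. With total counts these medians were −0.32 and −0.20. Of the 5, 0 were called by edgeR, DESeq2 or limma-voom. An unadjusted p under 0.05 was reached by 0 of 5, beside 27.5% of all tested genes. Acsl1, the main synthetase of heart, read 946, 1042, 970 and 1005 CPM in sham 1, sham 2, TAC 1 and TAC 2, a log2 fold change of −0.01 (95% interval −0.21 to 0.19). The lower values came from scarce members. Acsl4, which prefers arachidonic acid, read 10.7, 10.5, 7.46 and 9.28 CPM, a log2 change of −0.34 ± 0.15 (edgeR adjusted p = 0.189). Acsl5 read 6.95, 6.26, 4.70 and 6.01 CPM, a log2 change of −0.31 ± 0.18 (edgeR adjusted p = 0.312), and it overlaps Zdhhc6 on the opposite strand, whose counts were 290% to 390% of its own. In both, the TAC libraries were below the sham libraries. Acsl1 had 20.04, 22.0, 24.2 and 21.5 times the summed FPKM of Acsl3 to Acsl6 in the same order of libraries, and the groups overlapped. By CPM the ratios were 20.2, 22.1, 24.9 and 23.1, which put both TAC libraries above both sham libraries, so the order depended on the unit.

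Acyl-CoA thioesterases, which free fatty acids from CoA again, showed no called difference in edgeR, DESeq2 or limma-voom. None had an unadjusted p under 0.05 in edgeR, which 27.5% of all tested genes had. Acot13 read 107, 121, 131 and 130 CPM in sham 1, sham 2, TAC 1 and TAC 2, a log2 change of 0.19 ± 0.08 (edgeR adjusted p = 0.182). Acot2, the mitochondrial enzyme, read 53.3, 58.8, 60.2 and 62.0 CPM, a log2 change of 0.12 (edgeR adjusted p = 0.356). In both, the TAC libraries were above the sham libraries in CPM, while the groups overlapped in the deposited FPKM. With total counts Acot13 was at 0.01 and Acot2 at −0.06. The cytosolic relative Acot1 had −0.06, and since 19.2% of its 50-base stretches also occur in genes of the table, mostly Acot2, part of the counts may have been assigned to either. Acot2 had 4.83, 4.76, 5.26 and 4.66 times the FPKM of Acot1, with overlapping groups. By CPM the ratios were 4.67, 5.02, 5.79 and 5.28, with both TAC libraries above both sham libraries.

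The 23 members outside the 20 lowest p values and Angptl4 had log2 fold changes from −0.14 (Acsl6) to 0.14 (Dgat2) and edgeR adjusted p values of 0.401 or more. Over all 44 genes the gap between the sham libraries had a median of 0.07 on the log2 scale, with the widest at 0.36 in Plin4, and the gap between the TAC libraries had a median of 0.07, with the widest at 2.33 in Angptl4. The median absolute difference between the groups was 0.11. The difference between groups was wider than both gaps in 21 of the 44 genes, beside 52% of all tested genes. The genes with the widest gaps between TAC hearts were Angptl4, Ucp3, Cpt1a, Pdk4 and Lipe, and each was higher in TAC 2 than in TAC 1.

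The summed markers of endothelial, fibroblast and mural cells were lower in both TAC libraries, as the called genes were. The 15 endothelial markers summed to 701 CPM in sham 1 and 559 in sham 2 against 336 in TAC 1 and 471 in TAC 2, and 3 of them were called lower by edgeR, where 2.43% of all tested genes were. The 15 fibroblast markers summed to 582, 409, 226 and 317 CPM with 5 called lower, and the 12 mural markers to 766, 804, 444 and 585 CPM with 2 called lower. DESeq2 called 7 endothelial, 7 fibroblast and 3 mural markers lower, with 897 of 16015 genes called in all. The edgeR counts depended on single libraries. Fewer of these markers were called without TAC 1 and more without TAC 2, and the same held for all tested genes. Each of these sums was lower in both TAC libraries than in both sham libraries and lowest in TAC 1. Cpt1a, Lipe and Ucp3 shared this order. Both TAC libraries lay below both sham libraries in 30.3% of all tested genes. Within sham, the endothelial and fibroblast sums were higher in sham 1. The mural sum, Cpt1a, Lipe and Ucp3 were higher in sham 2. The 15 macrophage markers summed to 157, 80.4, 43.2 and 81.0 CPM, with overlapping groups and all 15 below 0 (median −0.90). Of these, 0 were called by edgeR, 7 were at an unadjusted p under 0.05 (27.5% of all tested genes), 1 was called by DESeq2 and 0 by limma-voom. Here too more were called without TAC 2, all of them lower. None of the endothelial, fibroblast or macrophage markers and no mural marker was at 0 counts in any library. The part of these cells in the results for Cpt1a, Lipe and Ucp3 was not tested, and in bulk RNA fewer cells of a type and less RNA per cell cannot be told apart.

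**Figure D5:**
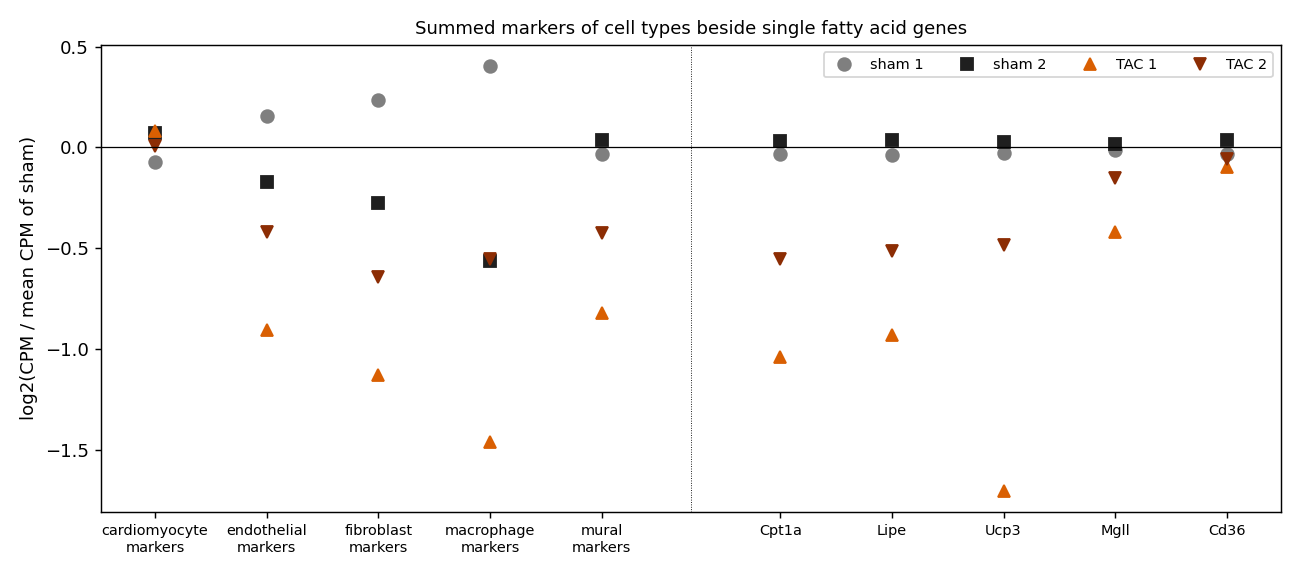
Summed CPM of cell type markers (left) and CPM of 5 fatty acid genes (right) in each of the 4 libraries, as log2 over the mean of sham. Endothelial, fibroblast and mural markers, Cpt1a, Lipe, Ucp3 and Mgll share the order with both sham libraries above TAC 2 and TAC 2 above TAC 1, while cardiomyocyte markers (89699 to 100063 CPM) overlap.

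Adipocytes are rich in Lipe, Lpl, Cd36 and Plin4, and their markers were therefore examined as well. Of 12 adipocyte markers, Adipoq, Lep, Plin1 and Retn had 0 counts in all 4 libraries, and 4 of the 12 passed the low-count filter. The 12 summed to 230, 247, 156 and 182 CPM in sham 1, sham 2, TAC 1 and TAC 2. Fabp4 made up the largest part of that sum in every library and was the single marker called lower. It is also expressed by capillary endothelium. Of the 4 tested markers, 2 had a value above 0 and 2 below 0, at a median log2 fold change of −0.002.

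Of 128 further genes of lipid metabolism, 114 were tested, with 1 called higher and 5 called lower in edgeR and a median log2 fold change of 0.04. Of the 15 tested genes of fatty acid synthesis and desaturation, 1 was called higher and 3 lower, with a median of −0.37. In that edgeR fit 2.58% of all tested genes were called higher and 2.43% lower. DESeq2 gave 1 higher and 2 lower in the group, with 897 of 16015 genes called in all. With total counts the group had 0 and 3, with 528 of 12499 genes called. The number called lower also depended on which TAC library was left out. With the deposited FPKM the median was −0.24, against −0.13 for all tested genes. No test compared this group with others. Scd4, a stearoyl-CoA desaturase of heart, fell from 15.3 ± 0.51 to 7.57 ± 0.57 CPM (mean ± SD, n = 2 each), by 1.01 on the log2 scale (edgeR adjusted p = 0.00896). Fasn, fatty acid synthase, fell from 20.3 to 12.5 CPM, by 0.70 (edgeR adjusted p = 0.0198), and Acaca, the cytosolic acetyl-CoA carboxylase, fell from 15.1 to 10.6 CPM, by 0.52 (edgeR adjusted p = 0.0477). The call of Fasn was lost without TAC 1 and with the deposited FPKM. The call of Acaca held in 5 of 12 alternatives, was lost in DESeq2, with the replicate block (edgeR adjusted p = 0.0768) and whichever library was left out, and its value was −0.21 with the deposited FPKM. Hacd1, a dehydratase of very-long-chain fatty acid elongation in muscle, rose from 22.2 to 38.2 CPM, by 0.78 ± 0.11 (edgeR adjusted p = 0.0159), and was no longer called with total counts or with the deposited FPKM.

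Fabp4, a fatty acid binding protein of fat and capillary endothelium, was the single called gene among 16 other carriers, at 151 and 156 CPM in sham 1 and 2 against 67.5 and 91.7 in TAC 1 and 2 (log2 fold change −0.95 ± 0.13, edgeR adjusted p = 0.0148). Like the endothelial sum given above, Fabp4 was lower in both TAC libraries and lowest in TAC 1. Within sham, Fabp4 was slightly higher in sham 2, while that sum was higher in sham 1. The part of endothelial cells in the fall of Fabp4 was not tested. None of 17 other genes of mitochondrial oxidation, 14 of peroxisomal oxidation, 20 of triglyceride synthesis and droplets and 10 other thioesterases and carnitine enzymes was called by edgeR, DESeq2 or limma-voom. At an unadjusted p under 0.05 these 4 groups had 3, 0, 6 and 3 genes in edgeR, beside 27.5% of all tested genes.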

How the data were processed

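Cardiomyocyte RNA from 2 sham and 2 TAC mice was analysed, with groups and replicate numbers taken from the sample titles. Per gene and library, the values deposited by the authors are an expected count (an estimated, partly fractional count) and an FPKM (fragments scaled by transcript length and library size). The submitters' processing notes list Bowtie2 2.2.8, StringTie 1.3.1 and mm10 with no role. The sources used here name neither the counting program nor its use of strand.

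Expected counts were rounded, filtered with filterByExpr, scaled by TMM and tested in R 4.3.3 with edgeR 4.0.16 (glmQLFit, glmQLFTest, TAC against sham, no block), with Benjamini-Hochberg adjustment over all 12499 genes tested and calls at an adjusted p under 0.05. CPM used TMM-scaled library sizes. FPKM served levels between genes and, as log2(FPKM + 1), a limma alternative. Alternatives were total counts (named in the methods of the study), totals without mitochondrial genes, RLE factors, DESeq2 1.42.0, limma-voom (limma 3.58.1), no low-count filter, a replicate block, adjusted p under 0.01 and 0.1, and leaving out each library. The edgeR, DESeq2 and limma-voom fits were tested on simulated data. Exon overlaps and 50-base stretches shared between genes came from GENCODE vM21 (GRCm38).

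Values per library are given for the 20 fatty acid genes with the lowest p, since fewer were called, and other lipid genes are named where called. Regulators and relatives of members that were not called were named in the closing section after their values were seen. Angptl4, Cd36, Lpl and Acsl1 were given in full, and other members by estimate, after their values were seen. The members and lists were chosen with earlier results of these data known.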

Additional observations from a re-analysis of the deposited data

How the results depend on the processing

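With 2 hearts per group, each call rests on a spread pooled over genes, and the part of depth in the spread of scarce members was not tested. Angptl4 had 76 to 384 counts. The cause of each change below was not tested. The fatty acid genes called higher and lower were 0 and 2 in the edgeR fit, where 626 of 12499 genes were called. They were 2 and 2 in DESeq2 (897 of 16015 genes) and 2 and 4 with no low-count filter (1676 of 16015). They were 0 and 2 with total counts (528 of 12499) and 0 and 3 with totals without mitochondrial genes (638 of 12499). With the deposited FPKM they were 0 and 0 (214 of 12499). At an adjusted p under 0.01 they were 0 and 0, and under 0.1 they were 2 and 3. With TAC 1 or TAC 2 left out these numbers changed, as did those of all tested genes. In such a fit the lone TAC sample is assumed to vary like the sham libraries. With the replicate block the fatty acid genes called were 1 and 3, and 566 of 12499 genes were called in all. Pdk4 (edgeR adjusted p = 0.0416) and Ucp3 (edgeR adjusted p = 0.0195) were added. Deviations of same-numbered libraries correlated at −0.28 over 8492 genes, so these data gave no sign that the numbers pair hearts. The methods speak of pairs of sham and TAC mice without tying them to the numbers. The crossed pairing, added after seeing the data, gave 2 and 4, with 2131 of 12499 genes called in all. The other lipid genes, 1 and 5 in the edgeR fit, were 0 and 5 with total counts and 2 and 5 in DESeq2. They were 6 and 14 with no filter, 0 and 3 with the deposited FPKM, and 1 and 4 with the replicate block. At an adjusted p under 0.01 they were 0 and 1, and under 0.1 they were 6 and 12. These numbers also changed with any library left out. Cpt1a was called in 11 of 12 alternatives (adjusted p from 0.000120 to 0.0622, the highest with FPKM), and with a library left out its log2 fold change was −1.04 to −0.55. Lipe was called in 10 of 12, at −0.93 to −0.51. Angptl4 was 1.34 without TAC 1 and reversed without TAC 2, at −1.18 (edgeR adjusted p = 0.0213, with 0.00953 to 0.995 over its alternatives). Of 27 single genes under 12 alternatives each, 287 values kept their side of the threshold, 21 lost the call, 15 gained it and 1 reversed. Total counts put the median log2 fold change of the fatty acid genes at −0.17 and that of all tested genes at −0.20, and uncalled values of Acadl, Acads, Slc25a20, Hadhb, Acot2 and Plin5 changed sign with total counts and with FPKM.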

Other observations

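Regulators of the fatty acid genes were measured in the same fit. Of 22 tested, 1 was called lower by edgeR, beside 2.43% of all tested genes. This was Ppargc1b, a coactivator of mitochondrial gene expression, which read 10.2 and 9.63 CPM in sham 1 and 2 against 6.53 and 5.93 in TAC 1 and 2 (log2 fold change −0.67 ± 0.14, edgeR adjusted p = 0.0441). That call was lost in DESeq2, with the replicate block, with the deposited FPKM and whichever library was left out. Its relative Ppargc1a read 75.6 and 84.0 CPM against 113 and 97.9, with a log2 fold change of 0.40 ± 0.10 that edgeR did not call (adjusted p = 0.0553) and DESeq2 did. Ppara, the receptor for which many fatty acid genes are known targets, read 14.7 and 18.2 CPM in sham against 15.6 and 13.9 in TAC, a log2 change of −0.16 (edgeR adjusted p = 0.482). Esrra, an ERR receptor, read 65.0 and 66.4 against 75.8 and 64.4 CPM, a log2 change of 0.09 (edgeR adjusted p = 0.545), with overlapping groups in both receptors.

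Relatives of the mitochondrial gates were also measured. Pdk1 and Pdk2, kinases of pyruvate dehydrogenase like Pdk4, had log2 fold changes of 0.15 and 0.11 and were not called (edgeR adjusted p = 0.199 and 0.342). Ucp2, a relative of Ucp3 that immune cells also express, read 19.4 and 15.4 CPM in sham against 7.46 and 13.4 in TAC, a log2 change of −0.75 ± 0.25 (edgeR adjusted p = 0.115), with TAC 1 the lowest library as in Ucp3. DESeq2 called Ucp2 lower. The same held for Nrip1, a corepressor of nuclear receptors, which read 22.8 and 24.0 CPM in sham against 12.8 and 18.1 in TAC (log2 fold change −0.60 ± 0.16, edgeR adjusted p = 0.0715).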
